A study of Mus musculus with 4 samples.

Results

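The 9 genes described here belong to the ciliary neurotrophic factor (CNTF) and interleukin-6 family: the ligands Cntf and Lif, the ligand-binding receptors Cntfr, Il6ra and Il11ra1, the signalling receptors Il6st, Lifr and Osmr, and the transcription factor Stat3. They were chosen by name, out of 54532 genes in the deposited table, because Cntfr was higher in both transgenic libraries than in both wild-type libraries. That comparison is therefore given below as a description, with no test. All 9 were found in the table, and 6 passed a filter on low values, while Osmr, Lif and Cntf did not. RNA came from isolated pancreatic islets. The mice were C57BL/6 males, 10 to 12 weeks of age, with 2 libraries from wild-type mice and 2 from mice carrying a miR-29a/b-1 transgene, described in the series title as specific to beta cells. The promoter of the transgene is not named in the labels, and neither are the number of mice behind a library or whether islets were pooled, so p-values below measure only the spread between these libraries.

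Cytokines of this family signal through gp130, the receptor chain encoded by Il6st. Interleukin-6 and interleukin-11 first bind their own alpha receptors, Il6ra and Il11ra1, which then bring gp130 chains together. CNTF binds Cntfr, an alpha receptor held on the membrane by a lipid anchor, and signals through gp130 paired with the LIF receptor, whereas LIF binds the LIF receptor directly and oncostatin M uses Osmr with gp130. Janus kinases on these chains phosphorylate STAT3, which enters the nucleus and switches on genes that include the feedback inhibitor Socs3. In islets, interleukin-6 acts on alpha and beta cells, and CNTF has been studied as a factor acting on beta-cell survival and insulin secretion.

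The transgene makes members of the miR-29 family, whose mature strands are shown because their shared seed defines the sites counted in the 9 genes. The sequences are from RefSeq (GRCm38.p6), written 5′ to 3′, with bases 2 to 8, the seed, in capitals. miR-29c is shown as the family member that is not made by the transgene's cluster.
mmu-miR-29a-3p: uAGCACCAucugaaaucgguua
mmu-miR-29b-3p: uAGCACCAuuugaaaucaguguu
mmu-miR-29c-3p: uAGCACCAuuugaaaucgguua
The seed is the same in all 3. The site it pairs with, TGGTGCT, was searched on the transcribed strand of the longest annotated 3′ UTR of each gene (GENCODE M21, GRCm38). It was present in 3 of the 9 genes: 2 times in Il6ra and 1 time each in Il6st and Lif. The 4 matches are shown with their flanks, the match in capitals, as read 5′ to 3′ along the transcript.
Il6ra, chr3:89870989-89871018, minus strand: agtaggtgcagcTGGTGCTgcataggctct
Il6ra, chr3:89869699-89869728, minus strand: agagccacagtgTGGTGCTtagattaaagt
Il6st, chr13:112506439-112506468, plus strand: catatcagacagTGGTGCTgtgaacgttgc
Lif, chr11:4270502-4270531, plus strand: atattaacttatTGGTGCTttaaatggcaa
The 3′ UTRs with a match were long, at 7102 bases in Il6ra, 5641 in Il6st and 3180 in Lif. No match was found in the 654 bases of Cntfr, the 354 of Il11ra1, the 6320 of Lifr, the 1794 of Osmr, the 238 of Cntf or the 3701 of Stat3. Among the 10704 compared genes with an annotated 3′ UTR of at least 50 bases, whose median length was 1200 bases, 15.6% held the site. Il6ra and Il6st, which hold the site and passed the filter, overlapped between genotypes. Il6ra was at 28.0 ± 7.20 FPKM (fragments scaled by gene length and library size, the authors' unit) in wild type and 28.8 ± 6.20 in transgenic islets (SD, n = 2 each). Il6st was at 6.80 ± 0.334 and 7.005 ± 0.240 FPKM.

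The 4 libraries held 21670854 to 27080907 reads assigned to genes, recovered from the FPKM. They were numbered 1 and 2 within each genotype in the sample titles, and more genes separated by number than by genotype. Of 12716 compared genes, 4374 were higher in both number 2 libraries than in both number 1 libraries, and 4122 were lower. Both transgenic libraries were above both wild-type libraries in 1555 genes and below in 1148. The leading component of a principal component analysis held 77.9% of the variance. The labels do not say what the number stands for. Islet identity was clear, with summed FPKM of 149513 to 283633 over 8 beta-cell markers and 13353 to 14175 over 5 alpha-cell markers. The beta-cell sum was 221448 and 283633 in the wild-type pair and 149513 and 268155 in the transgenic pair. Of the 8 beta-cell markers, 2 were higher and 4 lower in the transgenic library of both numbers. Between numbers, 6 were higher in number 2 and 1 in number 1 of both genotypes. Markers of acinar cells, the exocrine cells that surround islets, summed to 4725 and 6336 FPKM in the number 1 libraries (wild type, transgenic) and to 1001 and 1737 in the number 2 libraries. All 13 acinar markers were higher in number 1 of both genotypes, and all 13 were also higher in the transgenic library of each number. None was at 0 in all libraries, and the lowest was Ptf1a, at 0.0256 to 0.154 FPKM. In bulk RNA, fewer cells of a type and less RNA per cell cannot be told apart.

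Of the 6 receptor genes among the members, Il6ra and Cntfr were the most abundant in these islets and Osmr was the least abundant. Averaged over the 4 libraries, in FPKM, which divides by gene length so that genes can be set side by side, Il6ra stood at 28.4 ± 5.51 (SD, n = 4) and Stat3 at 18.8 ± 4.74. Cntfr followed at 14.9 ± 4.19. The Il6ra level lay at the 90.5 percentile of all 12716 compared genes, that of Stat3 at the 84.8 and that of Cntfr at the 80.2 percentile. The signalling chains were lower: Lifr stood at 7.08 ± 0.717 and Il6st at 6.90 ± 0.264 FPKM. Il11ra1 stood at 3.65 ± 0.764 FPKM, the lowest of the 6 members that passed the filter. Il6ra was above Stat3 in 4 of 4 libraries although their ranges overlapped, and Stat3 was above Cntfr in 3 of 4. Lifr was above Il6st in only 2 of 4 libraries, so those neighbours did not differ beyond their spread. The gaps between Cntfr and Lifr, between Il6st and Il11ra1 and between Il11ra1 and Osmr were free of overlap.

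**Figure D1:**
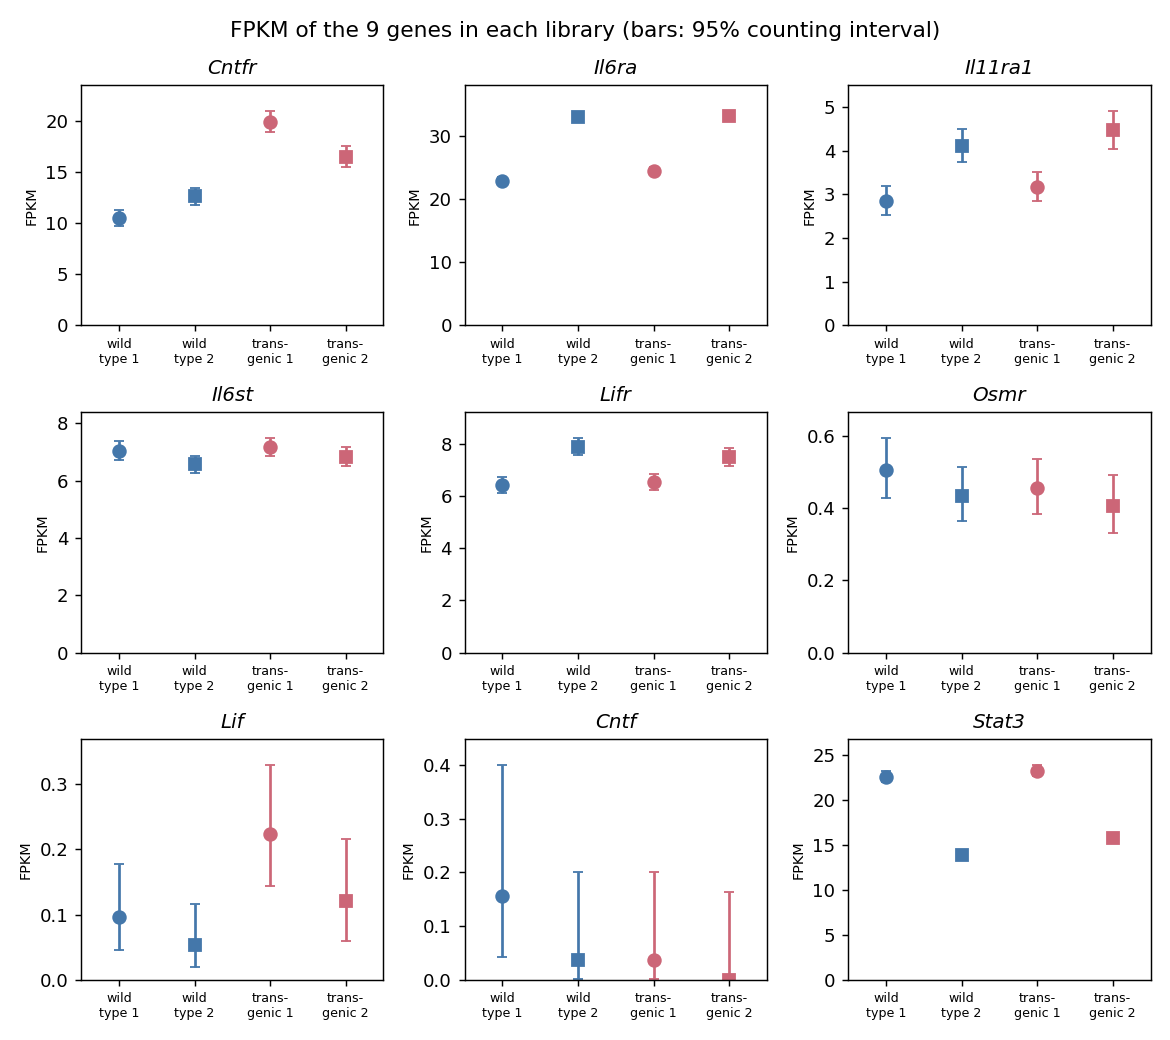
FPKM of each of the 9 genes (vertical axes from 0, 1 panel per gene) in the 4 libraries, with wild type in blue, transgenic in red, circles for number 1, squares for number 2 and bars for the 95% counting interval of the reads. Cntfr is the compared member whose transgenic libraries (19.9 and 16.5) both lie above both wild-type libraries (10.5 and 12.6). The other compared members separate by number, with Il6ra, Il11ra1 and Lifr higher in number 2 and Stat3 and Il6st lower. Over all 12716 compared genes, 4374 were higher and 4122 lower in number 2 in this way.

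Cntfr (chr4:41657498-41697089, minus strand, GRCm38) had 10.5 FPKM in wild type 1, 12.6 FPKM in wild type 2, 19.9 FPKM in transgenic 1 and 16.5 FPKM in transgenic 2. Both transgenic libraries were above both wild-type libraries, which is the pattern the gene was selected on. The values rest on 694, 909, 1428 and 962 reads in the same order. The 95% counting intervals were 9.69 to 11.3 and 11.8 to 13.4 FPKM in wild type and 18.9 to 21.0 and 15.4 to 17.5 in transgenic islets. These intervals cover counting error only, not the spread between islet preparations. The means were 11.5 ± 1.52 FPKM in wild type and 18.2 ± 2.44 in transgenic islets (SD, n = 2 each). On the log2(FPKM + 1) scale, which understates changes of low genes, the difference was 0.61 ± 0.18 (standard error). It was 0.87 within number 1 and 0.36 within number 2, which are ratios of 1.91 and 1.31 in FPKM. The larger Cntfr difference was in number 1, the pair of libraries with the most acinar RNA. The median difference of the compared acinar markers on the log2 scale was 0.47 within number 1 and 0.78 within number 2. In FPKM, the sums of all 13 acinar markers were 4725 and 6336 in number 1 and 1001 and 1737 in number 2 (wild type, transgenic). Acinar marker RNA was also higher in the transgenic library of each number, and its part in the Cntfr difference was not tested. The GC content of Cntfr exons is 59.8%, against a median of 49.7% over compared genes. With each library's trend with GC content removed, the Cntfr difference was 0.44.

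The high transgenic values of Cntfr were not shared by the chains that CNTF needs to signal. Il6st measured 7.04 and 6.57 FPKM in the wild-type pair and 7.17 and 6.83 in the transgenic pair. Lifr measured 6.41 and 7.88 FPKM in the wild-type pair and 6.53 and 7.48 in the transgenic pair. In both genes the genotypes overlapped, and the differences on the log2 scale were 0.04 ± 0.12 for Il6st and −0.02 ± 0.16 for Lifr. The ratio of Cntfr to Il6st in FPKM was 1.48 and 1.92 in the wild-type pair and 2.78 and 2.41 in the transgenic pair. Cntfr per Lifr was 1.63 and 1.60 in the wild-type pair and 3.05 and 2.20 in the transgenic pair. In both ratios the genotypes did not overlap, and since Cntfr is the numerator this follows the choice of the gene. Among the FPKM of the 6 receptor genes together, Cntfr made up 20.8% and 19.5% in the wild-type pair and 32.3% and 23.9% in the transgenic pair. Il6ra made up 45.7% and 51.2% in the wild-type pair and 39.6% and 48.2% in the transgenic pair, so it was the largest receptor in every library. The signalling chains Il6st, Lifr and Osmr summed to between 14.0 and 14.9 FPKM in the 4 libraries, and the 3 alpha receptors to between 36.2 and 54.1.

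**Figure D2:**
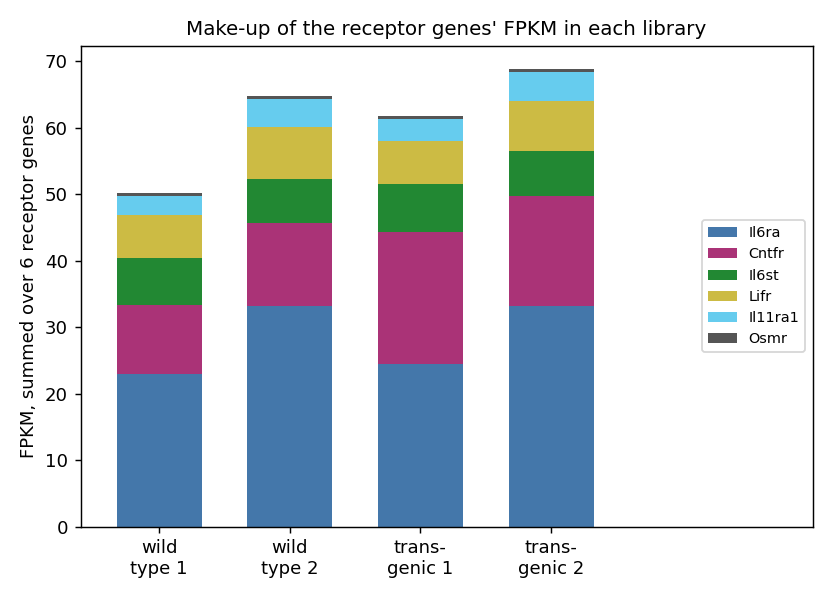
FPKM of the 6 receptor genes stacked for each of the 4 libraries (vertical axis in FPKM from 0, 1 colour per gene). Il6ra and Cntfr fill most of each bar, and the Cntfr segment is taller in the transgenic libraries while Il6st, Lifr and Osmr together stay between 14.0 and 14.9.

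The other alpha receptors were at similar levels in the 2 genotypes. Il6ra (chr3:89864059-89913196, minus strand) measured 22.9 and 33.1 FPKM in the wild-type pair and 24.4 and 33.2 in the transgenic pair, from 4730, 7419, 5445 and 6030 reads. The low values were both in number 1 libraries and the high values both in number 2, so the genotypes overlapped. The genotype difference of Il6ra was 0.05 ± 0.26, with 0.09 within number 1 and 0.00 within number 2. That standard error takes in the step between numbers, and with the number fitted too it was 0.078. Il11ra1 (chr4:41699989-41769474, plus strand) measured 2.85 and 4.11 FPKM in the wild-type pair and 3.18 and 4.47 in the transgenic pair, with the same split by number. Its genotype difference was 0.11 ± 0.22, and the 2 values within a number were 0.12 and 0.10. Il11ra1 FPKM was 0.124 of that of Il6ra in both wild-type libraries and 0.130 and 0.135 of it in the transgenic ones.

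Il11ra1 and Cntfr are neighbours on chromosome 4, on opposite strands and 2899 bases apart, yet their patterns over the 4 libraries differed. The annotated span of Il11ra1 runs over other genes, among them Dctn3, Rpp25l, Arid3c and Galt, and Galt lies on the same strand, so that some reads there may not be assignable to a single gene. The sources used here do not say whether counting used the strand. Il11ra2, a near copy of Il11ra1, appears as 3 gene models. They held 5 reads in transgenic 2 and 1 in transgenic 1, against 304 to 476 reads of Il11ra1 per library, and how reads shared between the copies were assigned is not given either. Il6ra overlaps the antisense gene Gm42809 by 281 bases, and that gene had 100 to 141 reads per library, a small number beside those of Il6ra.

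Stat3, the transcription factor of the pathway, did not separate by genotype either. It measured 22.6 and 13.8 FPKM in the wild-type pair and 23.2 and 15.8 in the transgenic pair (chr11:100885098-100939540, minus strand), and the genotypes overlapped. The genotype difference was 0.11 ± 0.32, with 0.04 within number 1 and 0.18 within number 2. Of the 6 compared members, 5 were higher in the transgenic library within both numbers and 0 were lower within both. Over all compared genes, 33.5% were higher within both numbers and 27.4% were lower. The 5 members include Cntfr, the gene the choice was made on, and Il6ra, whose difference within number 2 was only 0.0041. The count is a description. Of the 6, only Cntfr had both transgenic libraries above both wild-type libraries, a pattern seen in 12.2% of compared genes. Across all genes, limma called 0 of 12716 (0% called) at an adjusted p under 0.05 between genotypes, with 83 at an unadjusted p under 0.05. The voom test in limma on recovered reads also called 0, with 32 unadjusted. With 2 libraries against 2, an exact permutation test of a single gene cannot go below 0.333.

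**Figure D3:**
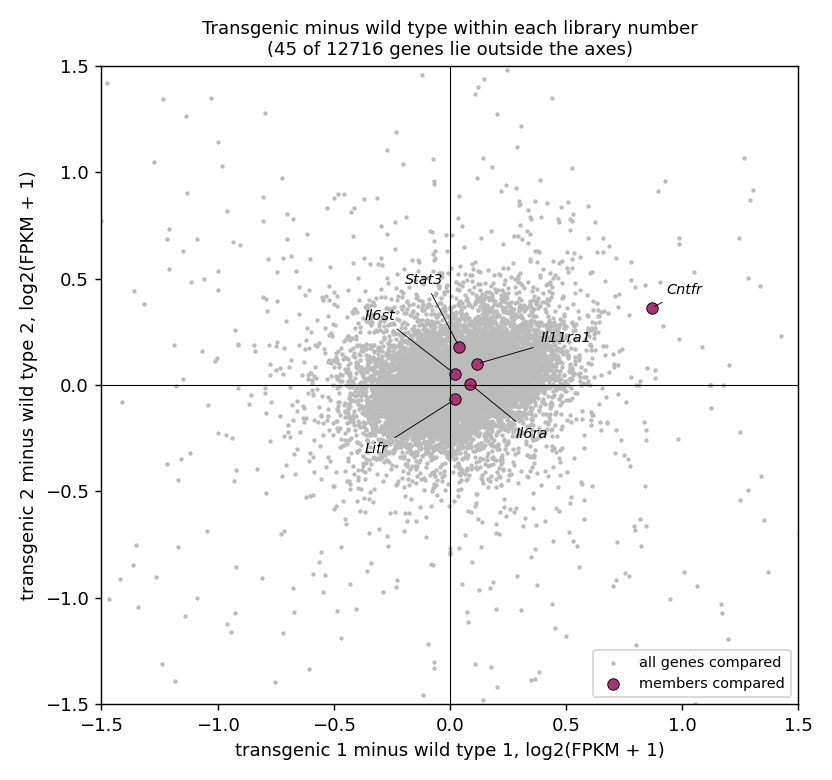
Transgenic minus wild type on the log2(FPKM + 1) scale within number 1 (horizontal) and within number 2 (vertical), with each compared gene in grey and the 6 compared members labelled; 45 of 12716 genes fall outside the axes. Cntfr lies at 0.87 and 0.36, and the other 5 members lie near the origin, the farthest being Stat3 at 0.04 and 0.18.

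Osmr, Lif and Cntf, which fell below the filter of 1 FPKM in 2 libraries, were low in every library. Osmr (chr15:6813577-6874969, minus strand) measured 0.505 and 0.433 FPKM in the wild-type pair and 0.455 and 0.405 in the transgenic pair, from 103 to 146 reads, and the genotypes overlapped. Lif (chr11:4257557-4272514, plus strand) had 10 and 6 reads in the wild-type pair and 25 and 11 in the transgenic pair, which is 0.0963 and 0.0532 FPKM against 0.223 and 0.120. Both transgenic values were above both wild-type values. The 95% counting interval of transgenic 2, from 0.0601 to 0.215 FPKM, nevertheless overlapped those of both wild-type libraries, 0.0462 to 0.177 and 0.0195 to 0.116. Cntf (chr19:12763660-12765632, minus strand) had 4 and 1 reads in the wild-type pair and 1 and 0 in the transgenic pair. The 0 reads in transgenic 2 allow up to 3 reads, or 0.133 FPKM. Cntf lies wholly within Zfp91 on the same strand, which was at 11.1 to 12.1 FPKM, and reads that fit both genes may not have been counted for either. The ligand that gives the CNTF receptor its name was thus not detectable above a few reads in whole islets, while its receptor was well above the median gene.

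The rule that chose the members names the genotype pattern of Cntfr and not the comparison of number 2 with number 1 libraries. Earlier results of these data were known, however, when the members were chosen. The comparison of numbers was tested in the same way as that of genotypes over all genes, with adjusted p-values from limma over all 12716 genes. Il6ra and Il11ra1 were higher in number 2 and Stat3 was lower, and each did so in both genotypes. Il6ra was higher by 0.47 ± 0.09 on the log2 scale (adjusted p = 0.0225), with number 2 to number 1 ratios of 1.44 in wild type and 1.36 in transgenic islets. Il11ra1 was higher by 0.40 ± 0.10 (adjusted p = 0.0396), with ratios of 1.44 and 1.41. Stat3 had a difference of −0.60 ± 0.10 (adjusted p = 0.0165), with ratios of 0.613 and 0.679. Of the remaining members, Lifr had a difference of 0.22 ± 0.09 (adjusted p = 0.126), Il6st −0.07 ± 0.08 (adjusted p = 0.556) and Cntfr −0.01 ± 0.29 (adjusted p = 0.991). For Cntfr the mean hides opposite values, 0.25 in wild type and −0.26 in transgenic islets.

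Such calls were common among all genes, where 10.1% of compared genes were higher in number 2 (1279 genes) and 10.6% were lower (1351 genes). The calls rest on all 4 libraries. When any 1 library was left out the Il6ra difference stayed between 0.43 and 0.51, but the adjusted p rose to between 0.0524 and 0.108. For Il11ra1 it was 0.34 to 0.46, with adjusted p between 0.0769 and 0.195. For Stat3 the call was lost without wild type 2 (adjusted p = 0.0741) or transgenic 1 (adjusted p = 0.0657), and without a filter on low values (adjusted p = 0.0683), where Il6ra (adjusted p = 0.0649) and Il11ra1 (adjusted p = 0.127) were lost too. The acinar markers given above moved with the number by far more than the members did, with 10 of 12 compared acinar markers lower in number 2 and a median difference of −2.04 on the log2 scale. Delta and PP cell markers summed to 6396 and 6818 FPKM in number 1 and 13386 and 13484 in number 2 (wild type, transgenic), with 3 of the 4 markers higher in number 2 of both genotypes, 2 called higher and a median difference of 0.55. Of the 5 alpha-cell markers, 4 were higher in number 2 of both genotypes and 3 were called higher, with a median difference of 0.68. Endothelial markers summed to 83.6 and 107 FPKM in number 1 and 64.7 and 78.0 in number 2, with 5 of 6 higher in number 1 of both genotypes and 2 called lower in number 2. The part of these markers in the differences of Il6ra, Il11ra1 and Stat3 was not tested.

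**Figure D4:**
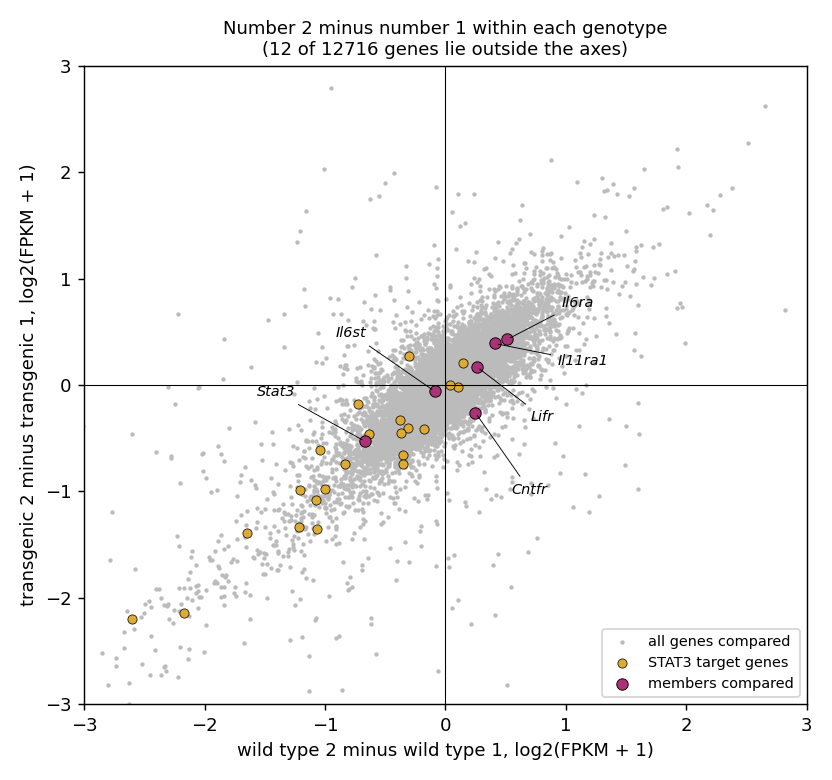
Number 2 minus number 1 on the log2(FPKM + 1) scale in wild type (horizontal) and transgenic (vertical) islets, with compared genes in grey, the 6 compared members and the STAT3 target genes marked; 12 of 12716 genes fall outside the axes. Il6ra and Il11ra1 lie in the upper right, Stat3 and the 10 target genes called lower lie in the lower left, and Cntfr off the diagonal at 0.25 and −0.26.

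The rest of the pathway was followed in 97 other genes, of which 65 passed the filter, listed by role, with Socs3 counted both as an inhibitor and as a STAT3 target. None of the 65 was called between genotypes by limma, and 0 had an unadjusted p under 0.05. With the number fitted too, voom called 10 of the 65, all higher in transgenic islets, and 238 of all 12716 compared genes. Between numbers, 16 of the 65 were called, 2 higher and 14 lower in number 2, where over all compared genes 10.1% were higher and 10.6% lower. All these lists were chosen with earlier results of the data known, so their shares are a description. Among the 10 other ligands, 2 passed the filter and 0 were called in either contrast. Ctf1, 1 of the 2, the gene for cardiotrophin-1, which also signals through the LIF receptor and gp130, measured 2.96 and 3.24 FPKM in the wild-type pair and 3.36 and 4.46 in the transgenic pair. Clcf1, a further ligand of the CNTF receptor, had 23, 11, 31 and 6 reads (wild type 1 and 2, then transgenic 1 and 2). Il6 had 22, 0, 13 and 2 reads, so the ligand of the most abundant receptor was found almost only in number 1 libraries. Il11 had 8 to 14 reads per library and Osm 2 to 6. None of the 6 other receptor genes of the family, Il11ra2 among them, passed the filter.

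Of the Janus kinases that sit on these receptors, Jak1 was the most abundant, at 19.7 and 19.2 FPKM in the wild-type pair and 19.7 and 18.9 in the transgenic pair. Jak2 measured 7.30 and 8.97 FPKM in the wild-type pair and 7.69 and 8.53 in the transgenic pair, and Tyk2 measured 4.39 and 3.45 against 4.62 and 3.45. Neither passed the test between numbers (limma adjusted p = 0.155 and 0.0576). Tyk2 was called lower in number 2 with genotype as a second term (adjusted p = 0.0479), after quantile normalization (adjusted p = 0.0499) and in voom (adjusted p = 0.0304). Of the 9 kinases and STATs compared, 1 was higher and 2 were lower in number 2. Jak3, which serves other cytokine receptors, was lower in number 2, with a difference of −1.03 ± 0.12 on the log2 scale (limma adjusted p = 0.00683, and 0.0595 without a filter on low values). Stat2 was lower too, with a difference of −0.46 ± 0.12 (adjusted p = 0.0423), and Stat5b was higher by 0.42 ± 0.11 (adjusted p = 0.0429). Leaving out single libraries ended the calls of Stat2 (adjusted p up to 0.238) and Stat5b (adjusted p up to 0.158).

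Among inhibitors of the pathway the difference between numbers was largest in Socs3, whose protein binds gp130 and blocks the kinases. Socs3 had 23.0 FPKM in wild type 1, 6.64 FPKM in wild type 2, 27.3 FPKM in transgenic 1 and 9.76 FPKM in transgenic 2. Both number 1 libraries were above both number 2 libraries, and the difference of number 2 from number 1 was −1.52 ± 0.18 (limma adjusted p = 0.00773, and 0.0507 without transgenic 1). Socs3 and Stat3 thus were lower in the same 2 libraries. Socs5 was higher in number 2, by 0.48 ± 0.11 (adjusted p = 0.0324, and up to 0.169 without a single library). The other 13 of 15 compared inhibitors were not called. With genotype as a second term Socs4 and Socs7 were called higher (adjusted p = 0.0281 and 0.039) and Cish lower in number 2 (adjusted p = 0.0104). The adaptor and MAP kinase branch held 16 compared genes, and 0 were called in either contrast. Ptpn11, the phosphatase SHP2 that docks on gp130, measured 26.9 and 29.4 FPKM in the wild-type pair and 28.7 and 32.3 in the transgenic pair. Cish, an inhibitor that is made in response to STAT5, measured 1.85 and 0.679 FPKM in the wild-type pair and 4.42 and 2.26 in the transgenic pair, and Socs2 measured 2.86 and 2.50 against 3.39 and 3.38.

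Of 22 compared genes that STAT3 is known to switch on, 10 were lower in number 2 libraries, 0 were higher and 12 were not called, where over all compared genes 10.6% were lower and 10.1% higher. The median difference was −0.55, against 0.01 over all compared genes. The list was chosen with earlier results of these data known, so these shares describe the list and are no independent test. Fos measured 692 and 153 FPKM in the wild-type pair and 915 and 207 in the transgenic pair, a difference of −2.16 ± 0.20 between numbers (limma adjusted p = 0.0046, and 0.0552 without a filter on low values). Klf6 measured 63.0 and 9.53 FPKM in the wild-type pair and 64.8 and 13.4 in the transgenic pair (difference −2.40 ± 0.16, adjusted p = 0.00276). Ccnd1, which drives entry into the cell cycle, was at 26.1 and 14.2 against 26.2 and 15.3 (difference −0.79 ± 0.09, adjusted p = 0.00676). The high values were in number 1 of both genotypes for all 3 genes, and Socs3, Junb, Cebpb, Ier3, Klf4, Zfp36 and Tnfrsf12a made up the rest of the 10. Fos, Junb, Klf6, Klf4, Ier3 and Zfp36 are also early response genes that many other stimuli switch on, so they are not specific to this pathway. Bcl3 and Pim1, targets studied in inflammation and growth, did not pass the test, at 4.33, 2.43, 5.28 and 3.58 FPKM and at 4.83, 3.57, 7.31 and 4.26 FPKM (limma adjusted p = 0.0683 and 0.104). Both were called lower in number 2 with genotype as a second term (adjusted p = 0.0177 and 0.0284) and in voom (adjusted p = 0.0233 and 0.0442). Without transgenic 1 only 3 of the 22 were called lower, without wild type 1 it was 9, and without a filter on low values 2 of 23. The acinar markers were higher in number 1 as well, and their part in these differences was not tested.

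Between genotypes, 19 of the 22 targets were higher in the transgenic library of both numbers and 1 was lower, where over all compared genes 33.5% were higher and 27.4% lower in this way, and 0 of the targets were called by limma. The median difference between genotypes was 0.34, against 0.01 over all compared genes. Only 3 of the 22 targets had both transgenic libraries above both wild-type libraries, and 1 had both below. Over all 12716 compared genes, 1555 (12.2%) lay above and 1148 below in this way. Here too the list was chosen with earlier results of these data known. Junb measured 134 and 57.1 FPKM in the wild-type pair and 220 and 86.8 in the transgenic pair, and Cebpd measured 10.0 and 5.65 against 12.5 and 10.9. Within each number the transgenic library was the higher one in both genes. In Junb the genotypes overlapped, while in Cebpd both transgenic values were above both wild-type values. Acinar markers, with a median genotype difference of 0.62, were higher in the same libraries, and their part in the values of the target genes was not tested.

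**Figure D5:**
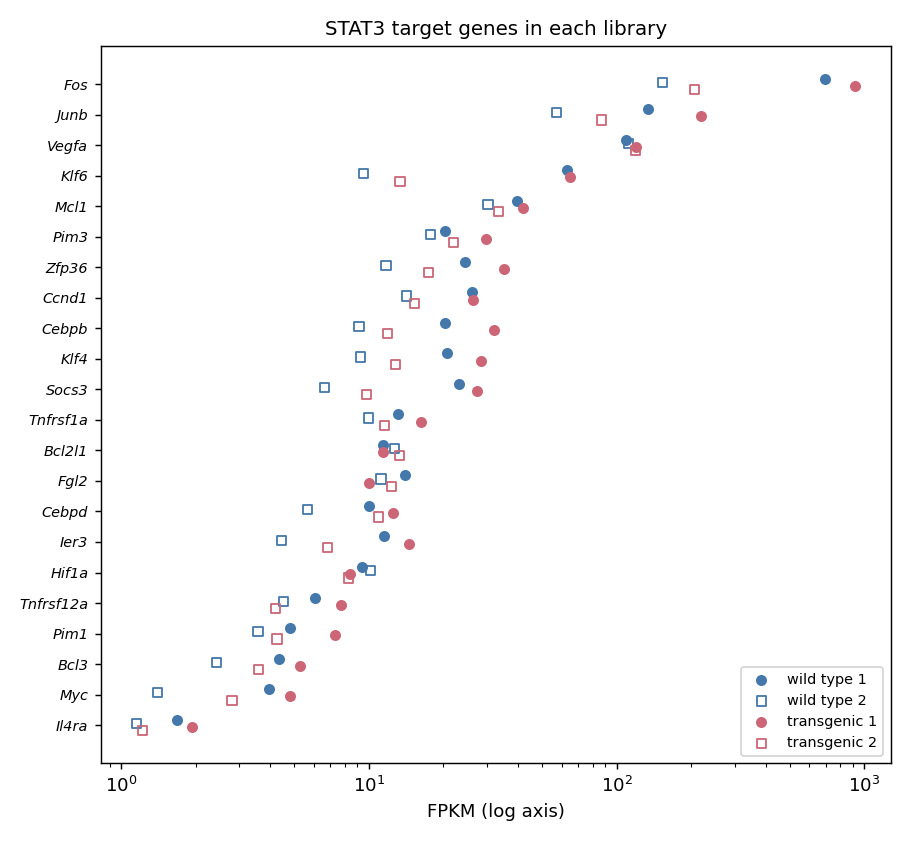
FPKM (log axis) of the 22 compared STAT3 target genes, 1 row per gene, with wild type in blue, transgenic in red, filled circles for number 1 and open squares for number 2. In genes such as Fos, Klf6 and Socs3 the number 1 circles of both genotypes lie to the right of the squares, and most red symbols lie slightly to the right of the blue symbol of the same number.

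Acute phase genes, a liver response to interleukin-6, were mostly below the filter in islets: 2 of 17 passed it. Reg3b, which exocrine tissue and islets make when inflamed, measured 17.9 and 0.608 FPKM in the wild-type pair and 13.8 and 0.750 in the transgenic pair, a difference of −3.32 ± 0.14 (limma adjusted p = 0.000993). Serpina3n was at 1.28 and 0.579 against 1.84 and 0.553 (difference −0.70 ± 0.15, adjusted p = 0.0291, and 0.0863 without transgenic 1). Both were higher in number 1, in the libraries with more acinar RNA, whose part in these values was not tested.

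The site that STAT dimers bind, TTCNNNGAA, reads the same on both strands and was searched in RefSeq promoters (GRCm38.p6), from 250 bases before to 50 after each start. Promoter entries were found for all 9 members and 73 of the 97 other pathway genes. The motif was in 0 of the 9 members, 12 of the 73 other pathway genes and 9.55% of 27025 genes in all. The motif was absent from Fos, Junb, Cebpb, Ier3, Klf4, Klf6, Tnfrsf12a, Jak3, Stat2 and Serpina3n, all called lower in number 2. Stretches around it are shown for 3 genes that held it and were also lower in number 2. The motif is in capitals, 5′ to 3′ on the strand of the gene.
Socs3, chr11:117969467-117969565, minus strand: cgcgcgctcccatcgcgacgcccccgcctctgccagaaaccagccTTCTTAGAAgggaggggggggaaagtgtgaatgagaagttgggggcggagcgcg
Zfp36, chr7:28379229-28379290, minus strand: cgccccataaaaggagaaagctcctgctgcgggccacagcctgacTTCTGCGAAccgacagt
Reg3b, chr6:78370711-78370809, plus strand: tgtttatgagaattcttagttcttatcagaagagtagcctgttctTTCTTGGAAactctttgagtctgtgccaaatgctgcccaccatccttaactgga
Zfp36, whose product destabilises cytokine mRNAs, measured 24.5 and 11.7 FPKM in the wild-type pair and 35.3 and 17.4 in the transgenic pair. The motif begins 154 bases before the start in Socs3, 17 in Zfp36 and 129 in Reg3b. Its presence is a description of these letters only.

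Likeness was measured as the distance between centred log2(FPKM + 1) values over the 4 libraries. The genes most like Cntfr were Tmem191c (distance 0.170), Mir6941 (0.200), Exoc3l2 (0.206), Chst12 (0.207) and Snora17 (0.225), the other members being at 0.640 or more. Mir6941, a microRNA gene, measured 0.710 to 2.63 FPKM, and Snora17, a small nucleolar RNA gene, 0.877 to 2.35. In genes this short such values rest on few reads, and the distance takes no account of counting error. Chst12, a sulfotransferase, measured 9.54 and 10.5 FPKM in the wild-type pair and 14.9 and 14.4 in the transgenic pair, a similar level and order to Cntfr. The genes most like Il6ra were much closer to it, with Pkm at a distance of 0.00589, Arpc5 at 0.0277, Plscr2 and Iscu at 0.0324 and Nck2 at 0.0342. Pkm, a glycolytic enzyme, was at 115, 164, 122 and 164 FPKM, with the same step between numbers as Il6ra. Il11ra1 was the nearest member to Il6ra, at 0.0997 and rank 144 among the compared genes that are not predicted models, and Lifr followed at 0.263. With 4 libraries many genes share any pattern of this kind.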

How the data were processed

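The authors deposited 1 table of FPKM per gene for 4 islet libraries. The submitters' processing notes name HTSeq 0.6.0 and the genome build GRCm38. No aligner is named in the sources used here. FPKM times gene length gave whole multiples of 1 step per library for 100% of values within 0.001, and these were taken as reads. The steps correspond to totals 0.957 to 1.09 times the summed reads, a further factor whose nature is not given. Genes with at least 1 FPKM in at least 2 libraries were compared on log2(FPKM + 1) with limma 3.58.1 (trended variance, two-sided, Benjamini-Hochberg over 12716 genes, threshold 0.05) in R 4.3.3, after a test of the code on simulated data. Genotype was fitted without the number and the number without genotype. Alternatives changed the pseudocount, filter, scaling, model (voom on reads) and GC correction (lowess, span 0.3), or left out a library. Intervals are exact Poisson.

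The members and gene lists were chosen with earlier results of these data known. Named genes are all members, fixed pathway genes, up to 4 per list with the smallest p between numbers, and the 5 nearest to Cntfr and Il6ra (predicted gene models left out). Chst12, Pkm and Zfp36 were singled out after their values were seen. Protein sequences were not used here. Some genes of the rule are not reported here.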

Additional observations from a re-analysis of the deposited data

Results flagged for a closer look

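For Cntfr, number 2 less number 1 was 0.25 on the log2(FPKM + 1) scale in wild type and −0.26 in transgenic islets, so the 2 genotypes moved in opposite directions. For Lifr, transgenic less wild type was 0.023 in number 1 and −0.067 in number 2, values smaller than its standard error of 0.16. Each value is a difference of 2 single libraries, and the difference between the values was not tested in either gene.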

How the results depend on the processing

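The genotype differences of the 6 compared members moved by less than the spread between replicates in all 59 values under other settings. Changing the filter or adding the number as a block in limma leaves these differences unchanged by construction. With 2 libraries per genotype, leaving out 1 cannot move a difference beyond that spread, so the 24 values without a single library are only described. The Cntfr difference ranged from 0.48 to 0.74 without single libraries and fell to 0.44 with the GC trend removed. Without single libraries that of Il6ra ranged from −0.21 to 0.30 and that of Stat3 from −0.22 to 0.44, so both changed sign. Those of Il11ra1 (−0.095 to 0.31), Il6st (−0.0066 to 0.081) and Lifr (−0.15 to 0.11) changed sign too. Libraries of the same number deviated together from their genotype means (correlation 0.775 across genes), but with 2 pairs and no label this is a shared number only. With the number as a replicate block, limma still called 0 genes between genotypes. The block in voom called 238 (204 higher, 34 lower), or 71 (56 higher, 15 lower) with the GC trend removed. Of the 65 pathway genes these 2 settings called 10 and 5, all higher in transgenic islets. The Cntfr difference under the block was 0.61 ± 0.14 in limma, 0.66 ± 0.11 in voom and 0.45 ± 0.10 in voom with the GC trend removed. Under the block in limma, the standard errors of Il6ra, Il11ra1 and Stat3 were 0.078, 0.079 and 0.082. Their errors without the block also hold the step between numbers.

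Between numbers, 2630 genes were called, 274 without a filter on low values and 835 to 1822 without single libraries. The 3 members called became 0 without a filter and 0 to 1 without single libraries (0 without wild type 2 or transgenic 1). The 16 pathway genes called became 3 without a filter, 29 in voom, 25 with the GC trend removed, 26 with genotype as a second term, and 5 to 18 without single libraries. The near-zero Cntfr difference between numbers turned to 0.0086 when scaled without Ins2, Ins1 and Iapp, 0.0019 after quantile normalization and 0.071 with the GC trend removed, and ranged from −0.44 to 0.43 without single libraries (0.17 without wild type 2, 0.43 without transgenic 1). Socs2 ranged from −0.23 to 0.089. The cause of these changes was not tested. Depth limits Lif and Cntf, at 0 to 25 reads a library.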
